A study of Mus musculus with 4 samples.

Results

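The 10 S100 genes described here are S100a1, S100a4, S100a6, S100a8, S100a9, S100a10, S100a11, S100a13, S100a14 and S100a16, taken by symbol from the 52636 genes of the deposited table. They were chosen by name once their levels over the clusters, cell classes and libraries of these data were known, so those levels are given as a description. Luminal epithelial cells were sorted from pooled thoracic and abdominal glands of C57BL/6N mice aged 6 weeks. The control cells were ErbB3+/+;MMTV-Cre (WT) and the others ErbB3V943R/V943R;MMTV-Cre (mutant), which express a receptor whose activator interface is mutated. Both groups carried MMTV-Cre, which drives Cre in mammary epithelium, so cells that did not recombine keep a WT receptor. Each genotype was 1 pool of 3 mice that was run as 2 droplet libraries, called A and B here. The libraries of a genotype are therefore technical, no test between genotypes was possible, and the 95% intervals below cover counting error only.

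S100 proteins are small proteins with a pair of EF-hand motifs that bind calcium. Most act as dimers inside the cell, where calcium binding opens a surface that grips partners such as annexins or the cytoskeleton. Some are also released and bind receptors such as Ager and Tlr4. Several are used as markers, S100a4 of fibroblast-like and immune cells and S100a8 with S100a9 of neutrophils and monocytes.

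The libraries held 6849 to 9627 cells each and 30019745 to 38009351 UMIs, with medians of 3154 to 4027 UMIs per cell. Levels are in CPM, the UMIs of a gene per 1000000 UMIs of the same cells, and each UMI stands for 1 captured molecule whatever the length of the transcript. Of the 13 deposited clusters, 1 and 2 are luminal progenitor (LP) cells, 3 is luminal intermediate (LI), 4 to 11 are mature luminal (ML), and 12 and 13 are rare populations. Kit, Elf5, Cd14 and Aldh1a3 summed to 1927 CPM in WT LP, 690 CPM in WT LI and 54.2 CPM in WT ML cells. Prlr, Esr1, Pgr and Prom1 summed to 314, 1876 and 2434 CPM. The study used Kit and Prlr to name the classes in these same cells, so these sums are a description. Erbb3, the targeted gene, stood at 60.9 and 63.3 CPM in the WT libraries and at 29.8 and 30.8 CPM in the mutant libraries. Pairs of libraries shared 71 to 111 cell barcodes. In cluster 3, 49.5% of cells were among those with the highest doublet scores, against at most 9.58% in any other cluster, so LI values are given with and without these cells where that changes their direction.

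All 10 genes lie on chromosome 3, in 2 groups that are 2824766 bases apart (GRCm38, GENCODE M21). S100a1, S100a13, S100a14, S100a16, S100a4, S100a6, S100a8 and S100a9 lie in this order from 90511034 to 90695721, a span of 185 kb. S100a11 (ENSMUSG00000027907, 93520488 to 93526287) and S100a10 (ENSMUSG00000041959, 93555080 to 93564643) lie beyond them. S100a1 (ENSMUSG00000044080, 90511034 to 90514392) is on the minus strand and S100a13 (ENSMUSG00000042312, 90514435 to 90524581) on the plus strand, head to head with 42 bases between them. S100a6 (ENSMUSG00000001025) runs from 90612882 to 90624181, S100a14 (ENSMUSG00000042306) from 90526856 to 90528837 and S100a16 (ENSMUSG00000074457) from 90537254 to 90543151. S100a4 (ENSMUSG00000001020) runs from 90603771 to 90606045 and overlaps the annotated gene Gm42674.

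The sequences shown are the stretch between S100a1 and S100a13, whose levels moved together over the ML clusters, and the bases before the starts of S100a6, the most abundant member, and of S100a4, the member of cluster 13. They are from RefSeq (GRCm38.p6), plus strand, 5′ to 3′, with motif matches in capitals. The RefSeq start of S100a6 lies inside the GENCODE gene, which holds the last 12 bases of the S100a6 stretch, and the S100a4 stretch overlaps Gm42674.
Between S100a1 and S100a13, chr3:90514393-90514434: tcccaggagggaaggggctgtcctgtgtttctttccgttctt
Before S100a6, chr3:90612644-90612893: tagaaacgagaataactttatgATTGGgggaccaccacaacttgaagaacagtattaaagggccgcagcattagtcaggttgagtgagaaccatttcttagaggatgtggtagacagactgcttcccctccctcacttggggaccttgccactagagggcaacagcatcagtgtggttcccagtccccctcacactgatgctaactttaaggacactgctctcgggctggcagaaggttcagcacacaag
Before S100a4, chr3:90603520-90603769: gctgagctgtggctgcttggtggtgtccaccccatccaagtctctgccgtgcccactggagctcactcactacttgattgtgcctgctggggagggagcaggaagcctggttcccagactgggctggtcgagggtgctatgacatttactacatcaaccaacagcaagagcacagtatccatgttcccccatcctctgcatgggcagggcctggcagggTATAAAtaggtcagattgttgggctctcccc
Motifs were searched on both strands in windows from 250 bases before to 50 bases after a start, and 9 such windows were found for 8 members, S100a10 and S100a14 being without one. TATAAA was present in 13.6% of 32851 windows and, among the members, in those of S100a4, S100a8 and S100a9. CCAAT was present in 37.4% of windows and in that of S100a6, where the capitals ATTGG are its reverse strand. GGGCGG was present in 35.7% of windows and in those of S100a9, S100a11 and S100a16, and TGANTCA in 7.81% of windows and in those of S100a11 and S100a16. These matches are letters in a window and not binding sites.

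S100a6 was by far the largest contributor of UMIs among the members. Over all cells it had 756088 UMIs, against 149361 for S100a11, 67339 for S100a16, 64762 for S100a10, 51605 for S100a1, 38793 for S100a14, 37011 for S100a13, 739 for S100a4, 53 for S100a8 and 0 for S100a9. The 10 genes together took 0.984% of all UMIs of the ML cells of WT, 0.731% of those of LI and 0.415% of those of LP cells. The same shares in mutant cells were 0.931%, 0.711% and 0.376%. S100a6 made up 68.0% of the members' UMIs in WT ML cells, where it ranked 9 among all genes by UMIs, and 47.9% in WT LP cells, where it ranked 44.

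**Figure D1:**
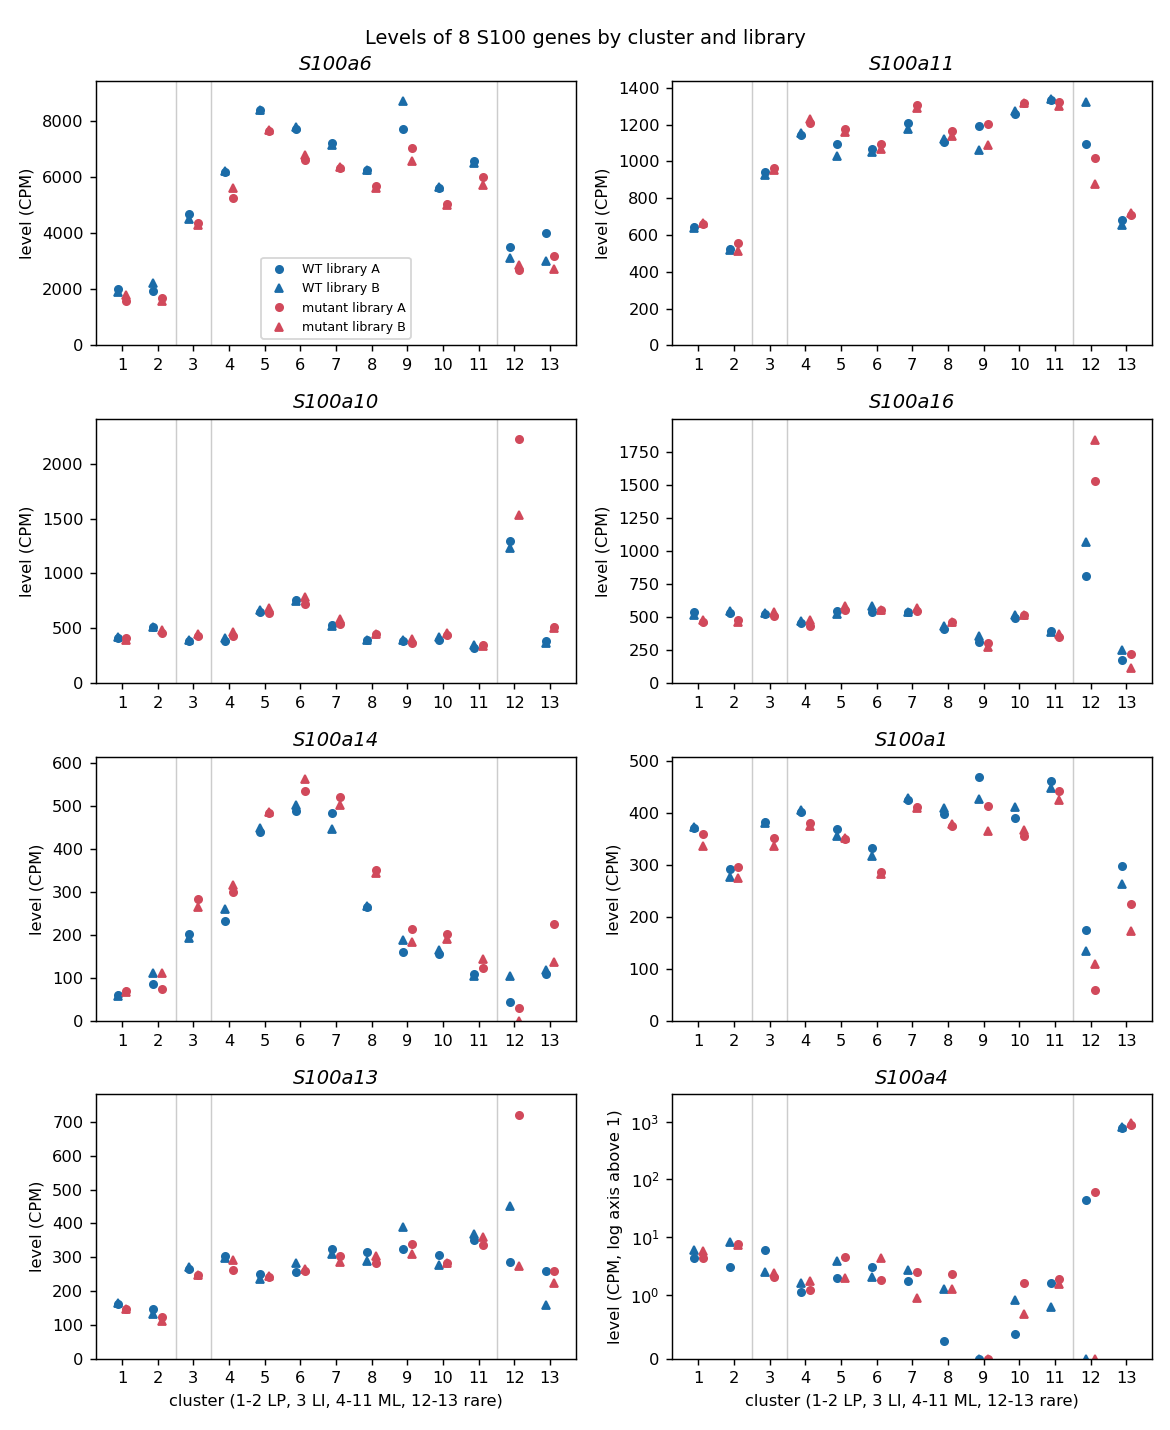
Level (CPM) of 8 S100 genes in each of the 13 clusters, with 1 point for each WT (blue) or mutant (red) library; the axis of S100a4 is logarithmic above 1 CPM and the others are linear from 0. Among luminal clusters 1 to 11, S100a6, S100a11, S100a13 and S100a14 are lowest in LP clusters 1 and 2 in WT, S100a14 peaks in ML clusters 5 to 7 and falls towards cluster 11, and S100a4 stands highest in cluster 13.

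S100a6 (calcyclin), which binds annexins and the Siah1-interacting protein Cacybp, separated the luminal classes. In LP cells it stood at 2004 and 1972 CPM in the WT libraries, and in ML cells at 6686 and 6709 CPM. The level in ML cells was 3.37-fold that in LP cells, a log2 ratio of LP over ML of −1.75 (−1.78 to −1.73). WT LI cells lay between them at 4603 CPM (4555 to 4653). Of LI cells, 49.5% were among those with the highest doublet scores. The WT LI median of 5620 UMIs per cell was the highest of the 13 clusters. The part of doublets in the S100a6 level of LI cells was not tested. Among the ML clusters the WT level was highest in cluster 5 at 8394 CPM and cluster 9 at 8119 CPM, whose intervals overlapped, followed by cluster 6 at 7753 CPM, within the range of the cluster 9 libraries, and cluster 7 at 7179 CPM. The lowest ML cluster was 10, at 5641 CPM, still above LI. Thinned to 1000 UMIs a cell, the median WT ML cell held 6 S100a6 UMIs (5th to 95th percentile 1 to 15) and the median WT LP cell 1 (0 to 6).

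S100a14, which in epithelia is linked to cell adhesion and movement, had the widest relative range of the abundant members. In WT LP cells it stood at 66.4 and 69.6 CPM and in WT ML cells at 290 and 294 CPM, 4.29-fold apart. Its ML profile rose from 247 CPM in cluster 4 to 496 CPM in cluster 6, 463 CPM in cluster 7 and 444 CPM in cluster 5, and fell to 265 CPM in cluster 8, 173 CPM in cluster 9, 161 CPM in cluster 10 and 108 CPM in cluster 11. Clusters 7 and 5 had overlapping intervals, and so did clusters 9 and 10. The mutant cells had the same high and low ends, with 549 CPM in cluster 6 and 135 CPM in cluster 11.

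S100a11, a partner of annexin A1, and S100a13, which takes part in the release of Fgf1 and Il1a, had LP and ML levels just short of 2-fold apart. S100a11 stood at 611 and 612 CPM in the LP cells of the WT libraries and at 1194 and 1187 CPM in their ML cells, 1.95-fold higher. S100a13 stood at 159 CPM in the LP cells of both WT libraries and at 309 and 302 CPM in their ML cells, 1.92-fold higher. Among the luminal clusters both were highest in cluster 11, with 1338 CPM of S100a11 and 361 CPM of S100a13 in WT cells, although the interval of S100a13 there overlapped that of cluster 9. Both were lowest in cluster 2, at 520 and 140 CPM, where the interval of S100a13 overlapped that of cluster 1.

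S100a1, S100a10 and S100a16 were nearer to level across the classes. S100a1, best known for regulating calcium handling in muscle, stood at 352 CPM in WT LP cells and 406 CPM in WT ML cells, with its lowest luminal level of 285 CPM in cluster 2 and its highest of 454 CPM in cluster 11, whose interval overlapped that of cluster 9. S100a10, which pairs with annexin A2, stood at 440 CPM in WT LP cells and 468 CPM in WT ML cells, but ranged from 333 CPM in cluster 11 to 756 CPM in cluster 6. S100a16 stood at 527 CPM in WT LP cells and 482 CPM in WT ML cells, with 330 CPM in cluster 9 and 561 CPM in cluster 6.

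These class differences describe the clusters and were not tested, because the same values had been used to draw them. By a rule of at least 2-fold in each WT library and at least 50 UMIs, 8 of the 10 members could be judged. S100a6 and S100a14 were lower in LP than in ML cells, as were 8.26% of all 15320 genes judged, and S100a4 was higher, as were 11.2%. The median log2 ratio of LP over ML was −0.57 over the members and 0.16 over all genes. Relative to that shift, S100a11 and S100a13 also passed 2-fold, and S100a16 turned from 0.13 to −0.03. In the mutant libraries the log2 ratios were −1.83 for S100a6, −2.34 for S100a14, −0.96 for S100a11 and −1.02 for S100a13. S100a10 went from −0.09 in WT to −0.33 in the mutant, and S100a16 from 0.13 (0.08 to 0.17) to −0.10 (−0.15 to −0.05).

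Cluster 11 was set apart from other ML cells by S100a14 alone among the members judged. The study names this gene for the cluster, so its value is a description. By the rule with a fold of 1.5, S100a14 was lower in WT cluster 11 than in other ML cells, at 108 against 328 CPM, as were 6.87% of genes, and 0 of the 8 members judged were higher, as were 2.52%. S100a10 was just outside, at 333 against 494 CPM, 1.48-fold lower, and was called without WT library B, which made 2 members lower. S100a16 stood at 388 against 501 CPM. The members that lay the other way, by smaller folds, were S100a13 at 361 against 295 CPM, S100a11 at 1338 against 1161 CPM and S100a1 at 454 against 396 CPM. S100a6 differed little, at 6533 against 6731 CPM.

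Over the 8 ML clusters the members fell into sets whose levels ran in parallel or in opposite directions. S100a10 and S100a14 ran together with a Pearson r of 0.88 over WT clusters and 0.91 over mutant clusters, and S100a10 and S100a16 with 0.76 and 0.80. S100a1 and S100a13, the neighbours that share the 42 bases shown above, ran together with 0.87 and 0.72. S100a1 also ran with S100a11, which lies in the other group on the chromosome, with 0.70 and 0.71. The part of the shared bases was not tested. S100a1 and S100a10 ran in opposite directions with −0.86 and −0.78. S100a6 was only weakly related to S100a1, with −0.28 and −0.27. Over all 11 luminal clusters the closest pair was S100a11 and S100a13, with 0.96 in each genotype. Over the ML clusters alone this pair was at 0.69 and 0.42. S100a6 and S100a11 went from 0.89 and 0.92 over 11 clusters to −0.61 and −0.55 over the ML clusters. For S100a11 and S100a14 the same values were 0.53 and 0.65, and −0.79 and −0.51. The clusters share libraries and were drawn from these values, so the coefficients are descriptions.

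**Figure D2:**
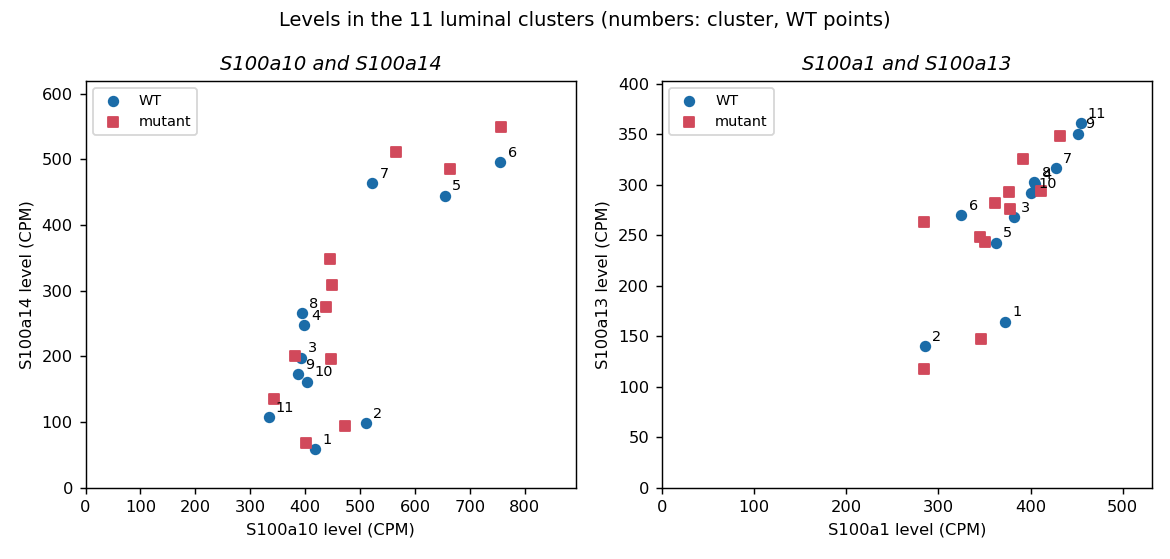
Levels (CPM) of S100a14 against S100a10 (left) and of S100a13 against S100a1 (right) in the 11 luminal clusters, with 1 point per cluster for WT (blue circles, numbered) and mutant (red squares). ML clusters 5, 6 and 7 are high in both S100a10 and S100a14, and LP clusters 1 and 2 lie apart at low S100a14; clusters 9 and 11 are high in both S100a1 and S100a13.

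The genes with the profile most like each member were taken from 4761 genes with at least 50 CPM in a WT luminal cluster, by Pearson r of log2(CPM + 1) over 11 WT clusters. For S100a6 they were Ddt and Fam25c, both with 0.98. For S100a14 they were Mras (0.98) and Crym (0.96), and for S100a11 Ifi35 (0.98) and Plekhg3 (0.97). S100a13 was most like Qtrt1 (0.99) and Rassf9 (0.98), S100a10 most like Acot7 and Pcbd2 (both 0.96), S100a1 most like Tmem205 (0.96) and Smim22 (0.95), and S100a16 most like Wdr1 (0.93) and Strn4 (0.92). S100a4, S100a8 and S100a9 did not reach 50 CPM.

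Mutant ML cells held less S100a6 and more S100a14 than WT ML cells, and no member was called by the rule in LP, LI, ML or cluster 11. That rule asks for a fold of 1.5, 50 UMIs and both libraries of 1 genotype beyond both of the other. It called 0 of 7 members judged in LP, 0 of 7 in LI, 0 of 8 in ML and 0 of 7 in cluster 11. Of all genes judged it called 2.23% higher and 0.606% lower in LP, 2.83% and 1.03% in LI, 2.86% and 1.57% in ML, and 2.7% and 3.17% in cluster 11. The median log2 ratio of mutant over WT over the members judged was −0.08 in LP, −0.01 in LI, 0.06 in ML and −0.05 in cluster 11, beside 0.02, 0.00, 0.00 and 0.03 over all genes judged.

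**Figure D3:**
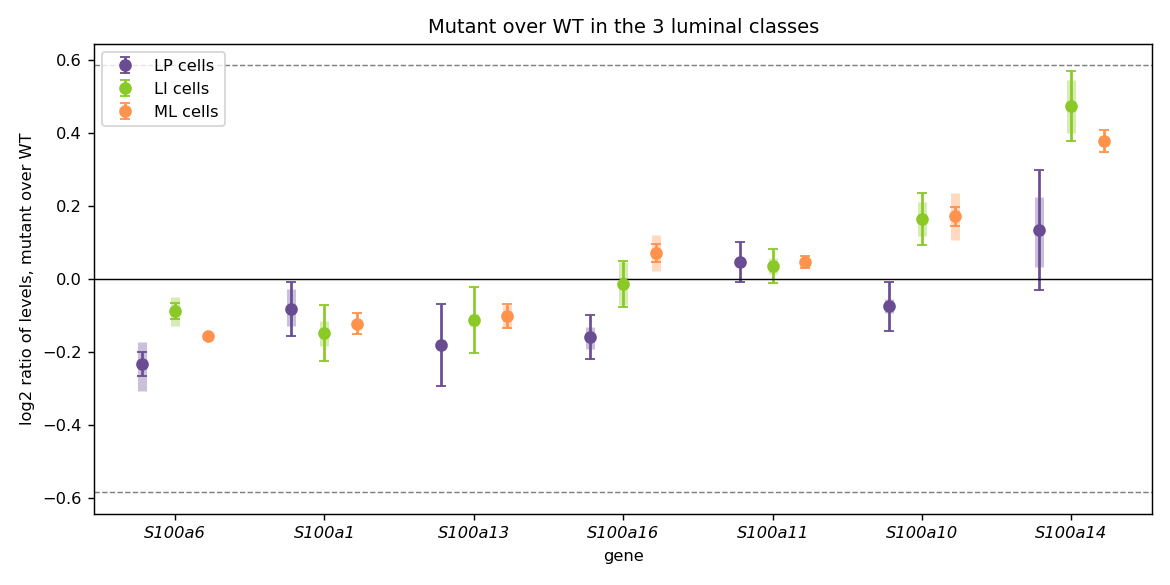
Log2 ratio of levels, mutant over WT, of 7 S100 genes in LP, LI and ML cells; points are pooled ratios, capped bars 95% counting intervals, pale bars the range over the 4 pairs of a mutant and a WT library, and dashed lines the 1.5-fold of the rule. All points lie inside the dashed lines; S100a6 is below 0 in each class and S100a14 in LI (0.47) and ML (0.38) is farthest above 0.

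Among the 7 abundant members, S100a14 had the largest log2 ratio in the LI and ML cells and in cluster 11. In ML cells it stood at 290 and 294 CPM in the WT libraries and at 380 and 379 CPM in the mutant libraries, a log2 ratio of 0.38 (0.35 to 0.41), or 1.3-fold. In LI cells it stood at 201 and 194 CPM in WT and 283 and 266 CPM in mutant libraries. The log2 ratio was 0.47 (0.38 to 0.57). It was 0.51 without the cells of high doublet score and 0.35 (0.21 to 0.50) without cells holding a UMI of a skin keratinocyte marker. In cluster 11 the pooled levels were 108 and 135 CPM, a log2 ratio of 0.33 (0.14 to 0.51), or 25.5% higher. The libraries of the genotypes did not overlap in any of these. With the fold lowered to a 25% excess of the higher level, the rule called S100a14 higher in LI, ML and cluster 11, where it called 9.89%, 11.4% and 10.8% of genes higher and 5.78%, 5.49% and 8.11% lower. It called no member in LP, where it called 8.54% of genes higher and 3.58% lower, and no member lower in any of these. In LP cells, where the level is low, 66.4 and 69.6 CPM in WT stood against 71.1 and 77.6 CPM in mutant libraries, and the log2 ratio of 0.13 (−0.03 to 0.30) became −0.01 without the cells of high doublet score.

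The size of the S100a14 difference in ML cells depended on which clusters the cells came from. Cluster 11, where S100a14 is lowest, held 2863 WT but 670 mutant cells. Without it the ML levels were 328 and 393 CPM, a log2 ratio of 0.26 (0.23 to 0.29). With the mutant ML clusters weighted by the share of UMIs that each had in WT, the log2 ratio was 0.22. Over the 11 luminal clusters S100a14 was higher in the mutant in 10, without overlap of the libraries in 9. The log2 ratios ran from −0.07 in cluster 2 to 0.39 in cluster 8 and 0.47 in cluster 3. The share of all genes with such counts of clusters was not worked out, so nothing is read from the counts.

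S100a6 was lower in the mutant in each class. In ML cells it stood at 6686 and 6709 CPM in WT libraries and at 5979 and 6035 CPM in mutant libraries, a log2 ratio of −0.16 (−0.16 to −0.15), or 10.3% lower. In LP cells 2004 and 1972 CPM stood against 1621 and 1748 CPM, a log2 ratio of −0.23 (−0.27 to −0.20). In LI cells 4686 and 4518 CPM stood against 4367 and 4287 CPM, a log2 ratio of −0.09 (−0.11 to −0.07) that became 0.01 without the cells of high doublet score. S100a6 was lower in each of the 11 luminal clusters with no overlap of the libraries in any of them, and the log2 ratios ran from −0.34 in cluster 2 to −0.09 in cluster 3. Among 2274 genes with at least 50 UMIs in the genotype with more in each cluster, 5.94% were lower and 8.71% higher in all 11, and 0.836% were lower and 1.5% higher with no overlap in each. Weighting the ML clusters as in WT left the ratio at −0.17.

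**Figure D4:**
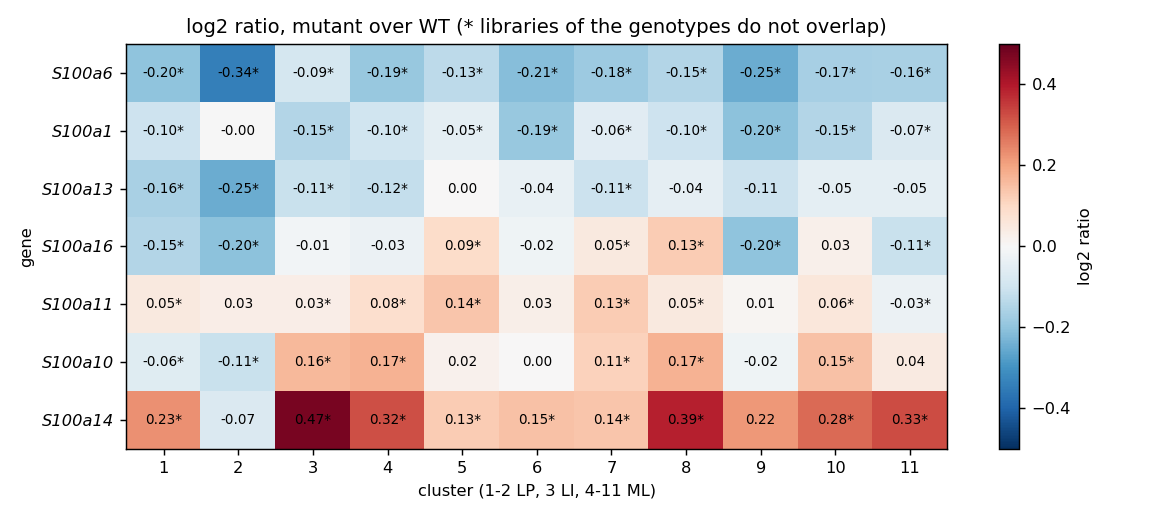
Log2 ratio of levels, mutant over WT, of 7 S100 genes (rows) in the 11 luminal clusters (columns), blue where lower and red where higher in the mutant; a star marks clusters in which the libraries of the genotypes did not overlap. S100a6 is below 0 with a star in all 11 clusters, S100a14 is above 0 in 10, and S100a10 and S100a16 are below 0 in LP clusters 1 and 2 and mixed in the others.

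S100a1 and S100a13 were lower in the mutant by slight amounts. S100a1 stood at 405 and 407 CPM in the ML cells of WT libraries and at 372 and 374 CPM in those of mutant libraries, a log2 ratio of −0.12 (−0.15 to −0.09). It was lower in all 11 luminal clusters, as were 5.94% of the 2274 genes above, and without overlap of the libraries in 10, cluster 2 being level at −0.00. S100a13 stood at 309 and 302 CPM against 282 and 287 CPM in ML cells, a log2 ratio of −0.10 (−0.13 to −0.07). It was lower in 10 clusters, without overlap in 5. The share of all genes with no overlap in 10 or 5 clusters, or lower in 10, was not worked out. S100a11 lay slightly above WT, at 1194 and 1187 CPM against 1233 and 1227 CPM in ML cells, a log2 ratio of 0.05 (0.03 to 0.06). In cluster 11, however, its libraries lay below those of WT, with a log2 ratio of −0.03 (−0.09 to 0.03).

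S100a10 and S100a16 had opposite signs in LP and ML cells. S100a10 stood at 437 and 442 CPM in the LP cells of WT libraries and at 421 and 415 CPM in those of mutant libraries, a log2 ratio of −0.08 (−0.14 to −0.01). In ML cells 460 and 475 CPM stood against 511 and 541 CPM, a log2 ratio of 0.17 (0.15 to 0.20). With WT weights of the clusters the ratio was 0.10. S100a16 stood at 534 and 521 CPM against 468 and 476 CPM in LP cells, a log2 ratio of −0.16 (−0.22 to −0.10). In ML cells 474 and 490 CPM stood against 497 and 515 CPM, a log2 ratio of 0.07 (0.05 to 0.10), which WT weights brought to 0.02. Over 5 bins of UMIs per ML cell, the log2 ratio of S100a16 went from −0.16 in the shallowest bin to 0.06 in the deepest. It was below 0 in the 3 shallowest bins and above 0 in the others.

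Counting only whether the libraries of the genotypes overlapped, 2 members judged were wholly higher and 5 wholly lower in mutant LP cells, where 23.1% and 18.1% of genes were. The counts were 3 and 3 in LI (23.2% and 22.5%), 4 and 3 in ML (27.6% and 26.7%) and 1 and 4 in cluster 11 (24.9% and 18.7%).

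Depth and several marker lists also moved with the genotype, among them stress genes, a keratin gene and fibroblast markers. All 5 fibroblast markers were detected in the ML cells of each genotype and summed to 15.0 and 13.8 CPM in WT and 5.43 and 4.38 CPM in mutant libraries, and their part was not tested. Median UMIs per ML cell were 3508 in WT and 4069.5 in mutant cells. Within 5 bins of UMIs per ML cell, S100a14 was higher in the mutant in each, with log2 ratios of 0.22 to 0.30, and S100a6 lower in each, with −0.22 to −0.02. All 6 dissociation stress genes listed (Fos, Jun, Egr1, Hspa1a, Hspa1b and Dnajb1) were detected in ML cells and together stood at 12494 and 13059 CPM in WT and at 10338 and 10944 CPM in mutant libraries; their part in the S100 differences was not tested. All 6 were also detected in the other classes, at 15863 and 16607 CPM in WT and 13053 and 13310 CPM in mutant LP cells, and at 13969 and 14973 against 10641 and 11325 CPM in LI cells. Skin keratinocyte markers summed to 73.7 and 91.6 CPM in WT and 156 and 153 CPM in mutant ML cells, 5 of 6 having a UMI in each genotype, and most of this was Krt6a, at 62.8 and 133 CPM in the pooled genotypes. The same 6 markers summed to 86.6 and 74.8 against 121 and 135 CPM in LI cells and to 31.5 and 28.8 against 43.3 and 49.1 CPM in LP cells. In LI cells Krt6a rose from 45.1 CPM in WT to 105 CPM in the mutant. Krt10 fell there from 23.1 to 16.4 CPM, Krt1 from 7.16 to 5.8 CPM and Krtdap from 5.14 to 0 CPM. The 38 UMIs of Krtdap in LI cells were all in WT library A. In ML cells Lor stood at 0.37 and 0.35 CPM, Krtdap had 1 UMI in WT and none in mutant ML cells, and Sprr1b none in WT and 1 in mutant ML cells. Leaving out cells with a UMI of these markers left 11429 WT and 6424 mutant ML cells, and 835 and 574 LI cells. Before that, the WT libraries held 7355 and 6833 ML cells and the mutant libraries 4779 and 4833. A cell with more UMIs is more likely to be left out, so this choice also depends on depth. In ML cells with no UMI of these markers the log2 ratio was 0.25 (0.21 to 0.29) for S100a14 and −0.18 (−0.19 to −0.17) for S100a6. There S100a16 was at −0.01, and in LP cells S100a14 was at −0.11 (−0.30 to 0.09) and S100a6 at −0.31 (−0.34 to −0.27). All 4 cycling markers were detected in ML and LI cells, at 201 and 207 CPM in WT and 230 and 221 CPM in mutant ML cells, and at 77.1 and 61.3 against 100.2 and 113 CPM in LI cells. Kit, Elf5, Cd14 and Aldh1a3 summed to 54.6 and 53.7 CPM in WT and 57.3 and 56.8 CPM in mutant ML cells. In LI cells they summed to 652 and 730 against 566 and 624 CPM. The basal markers Krt5, Krt14, Acta2, Oxtr, Trp63 and Mylk, all detected, summed there to 31.6 and 33.0 against 41.4 and 41.0 CPM. Of 7 macrophage and dendritic markers 6 had a UMI in the ML cells of each genotype, Adgre1 being at 0, and they summed to 5.27 and 6.28 CPM in WT and 8.62 and 7.58 CPM in mutant libraries. Prlr, Esr1, Pgr and Prom1 summed to 2380 and 2485 CPM in WT and 2153 and 2373 CPM in mutant ML cells. In LP cells they summed to 311 and 316 against 268 and 294 CPM, and in LI cells the genotypes overlapped. Epcam, Krt18, Krt8 and Krt19 summed to 23686 and 24079 CPM in WT and 25080 and 25306 CPM in mutant ML cells. In LI cells they summed to 19044 and 19186 against 20233 and 19879 CPM. The part of the cycling, luminal, mature luminal, luminal progenitor, basal, and macrophage and dendritic markers was not tested. In cluster 11 the fibroblast markers summed to 34.4 and 38.3 CPM in WT and 22.3 and 8.27 CPM in mutant libraries. Cycling markers summed there to 17.4 and 21.5 against 26.0 and 36.8 CPM, and the stress genes to 15867 and 16420 against 14409.5 and 14474 CPM. Kit, Elf5, Cd14 and Aldh1a3 summed to 32.9 and 36.7 against 41.8 and 41.3 CPM. Epcam, Krt18, Krt8 and Krt19 summed to 20897 and 21196 against 22328 and 21566 CPM. The part of these lists in cluster 11 was not tested.

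S100a4 (metastasin), which binds non-muscle myosin, lay mainly outside the luminal clusters. Of its 739 UMIs, 424 (57.4%) were in the 164 cells of cluster 13, 94 in LP, 48 in LI, 169 in ML and 4 in cluster 12. In cluster 13 it stood at 760 and 804 CPM in WT libraries and at 869 and 933 CPM in mutant libraries, and the pooled intervals of 689 to 906 and 783 to 1030 CPM overlapped. There 55.4% (44.1 to 66.3%) of WT cells had an S100a4 UMI at a median of 1899 UMIs per cell, against 0.599% (0.479 to 0.740%) of WT ML cells at a median of 3508. Thinned to 1000 UMIs per cell, these shares were 36.1% and 0.127%.

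Cluster 13 was marked by Cd74, the invariant chain of antigen presentation, at 14174 CPM in WT and 17522 CPM in mutant cells. Of the 7 macrophage and dendritic markers, which include Cd74, 4 had a UMI there in WT and 5 in mutant cells. C1qb and Cd68 were detected in both genotypes and Adgre1 in the mutant only, while C1qa and Csf1r were at 0. Lyz2 was uneven, at 557 and 129 CPM in the WT libraries and 117 and 1322 CPM in the mutant libraries. Of its cells, 18 had a UMI of Cd3e, Cd3g, Cd79a or Ms4a1 and none of a macrophage or dendritic marker other than Cd74, and 1 of these held S100a4, with 2 UMIs. Among 35 cells with a macrophage or dendritic UMI and no such lymphocyte UMI, 14 held S100a4, at 641 CPM (507 to 800). Among 110 cells with neither, 73 held it, at 1003 CPM (898 to 1116), and 1 cell had both. Luminal keratins and Epcam summed to 8794 CPM in WT cluster 13, against 23891 CPM in WT ML cells, and S100a6 stood at 3276 CPM there; the part of free RNA or doublets in that level was not tested.

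Within the luminal classes S100a4 was near the limit of detection. In LP cells it stood at 3.96 and 6.47 CPM in WT libraries and 5.06 and 6.13 CPM in mutant libraries, and in ML cells at 1.29 and 1.72 against 2.1 and 1.56 CPM. The libraries of the genotypes overlapped in both classes. In LI cells 5.85 and 2.48 CPM stood against 2.01 and 2.38 CPM without overlap, a log2 ratio of −0.94 (−1.88 to −0.04) on 31 and 17 UMIs, below the minimum of the rule. Its LP level in WT, 5.28 CPM (3.85 to 7.07) on 45 UMIs, was 3.49-fold the ML level of 1.51 CPM (1.21 to 1.87), and the mutant gave 3.11-fold. Without WT library B the LP and ML cells held 16 and 35 UMIs, and S100a4 was no longer called. Of the 91 LP cells with an S100a4 UMI, 2 also held a macrophage, dendritic or lymphocyte marker UMI other than Cd74, or 2.2%, against 2.44% of all LP cells. In ML cells 7 of 166 did, or 4.22%, against 1.54% of all ML cells.

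S100a8 and S100a9 form calprotectin in neutrophils. S100a9 had no UMI in any cell, which allows a level of up to 0.0221 CPM, taking 3 UMIs over all cells as the limit. S100a8 had 53 UMIs, 45 of them in 42 ML cells and none in cluster 13, and stood at 0.48 CPM in WT and 0.39 CPM in mutant ML cells. Of 6 neutrophil markers 3 had a UMI in WT ML cells and 2 in mutant ML cells, where they summed to 1.95 and 3.59 CPM. Nearly all of this was Ly6g, at 1.92 and 3.57 CPM, while Retnlg and Camp had no UMI in LP or ML cells.

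Cluster 12 held 43 WT and 33 mutant cells. Fibroblast markers summed there to 5632 CPM in WT and 11129 CPM in mutant cells, and endothelial markers to 2210 and 3552 CPM. S100a10 stood there at 1292 and 1232 CPM in WT and 2222 and 1533 CPM in mutant libraries, above every luminal cluster. S100a16 stood at 810 and 1067 CPM in WT and 1531 and 1835 CPM in mutant libraries, 1.76-fold higher in the mutant on 108 and 118 UMIs. Luminal markers summed to 8279 CPM in its WT cells and 1805 CPM in its mutant cells, and the part of these 3 marker lists in the differences between genotypes was not tested.

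Of 8 other S100 genes listed, 7 were in the table, and only S100b with 502 UMIs, S100g with 210 and S100a3 with 63 reached 50 UMIs over all cells. S100b stood at 10.9 CPM in WT LP and 2.48 CPM in WT ML cells and was higher in LP by the 2-fold rule, as was S100g at 5.87 and 0.123 CPM. The S100g call rests on 50 UMIs in LP cells, 38 in WT library A and 12 in WT library B, at 9.41 and 2.68 CPM, so leaving out either library takes it below the minimum. Of 19 partners and receptors of S100 proteins, 0 of 15 judged in LP, 0 of 13 in LI and 0 of 16 in ML cells were called between genotypes, where the rule called 2.23%, 2.83% and 2.86% of all genes higher and 0.606%, 1.03% and 1.57% lower. In cluster 11, where it called 2.7% higher and 3.17% lower, 1 of 14 partners was called, Fgf1, with 7.02 CPM in WT and 3.32 CPM in mutant cells on 66 and 8 UMIs. Nothing is read from counts this near to those shares. The annexin Anxa2, which pairs with S100a10, stood at 743 CPM in WT ML cells with a log2 ratio of mutant over WT of −0.00 (−0.02 to 0.02), and Anxa3 was at 0.36 (0.31 to 0.40). Outside cluster 11, ML cells held 172 CPM of Anxa3 in WT and 205 CPM in the mutant, against 69.8 and 82.2 CPM in cluster 11.

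Between WT LP and ML cells 2 of 17 partners judged were higher in LP and 0 lower, where 11.2% and 8.26% of all genes were. These were Anxa8 at 10.8 against 0.58 CPM and Tlr4, a receptor for S100a8 and S100a9, at 8.22 against 3.24 CPM. Of 14 other EF-hand genes, 13 could be judged and 0 were called between genotypes in LP, LI, ML or cluster 11, and nothing is read from that count beside the same shares. Between LP and ML cells Efhd2 was higher in LP at 99.3 against 48.2 CPM, and Cib1 was lower at 82.3 against 176 CPM. Between WT cluster 11 and other ML cells, 1 of 16 partners judged was higher and 2 lower, where 2.52% and 6.87% of all genes were. Fgf1 was higher, at 7.02 against 3.36 CPM on 66 and 159 UMIs. Anxa3 and Anxa6 were lower, at 69.8 against 172 CPM and 151 against 235 CPM. Nothing is read from these counts.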

How the data were processed

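Single cell RNA sequencing libraries were made with 3′ droplet chemistry, and the authors clustered the cells in Partek Flow with a Seurat resolution of 0.6. Per the labels, the processing tools were CASAVA 1.8, bcl2fastq 2.20 and GSNAP 2013-10-10, with genome build GRCm38. The deposited values are a signal, the UMIs of each cell multiplied by 1 factor for that cell. Dividing by the smallest nonzero value of a cell gave whole numbers for 100% of values (largest distance 0.00989, tolerance 0.02), and these were taken as UMIs. All deposited cells, clusters and classes were used. Scrublet (expected rate 6%) called 1 of 32439 cells a doublet and so did not work as a caller; its scores served only to leave out the top 6% as an alternative.

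UMIs were summed over cells and divided by all UMIs of those cells (CPM). Levels have exact Poisson intervals, shares have Clopper-Pearson intervals, and ratios have exact intervals from the binomial split of their UMIs. A genotype difference was called at a fold of 1.5 with at least 50 UMIs in the side with more and both libraries of 1 genotype beyond both of the other. LP against ML cells used a fold of 2 in each WT library, and cluster 11 against other ML cells a fold of 1.5. No p-value is given for a gene, since each genotype was 1 pool of mice. limma 3.58.1 (R 4.3.3) on log2 of library sums with 0.5 UMIs added, adjusted p under 0.05, was an alternative that compares these libraries, not the genotypes, because it treats 2 technical libraries of 1 pool as replicates. The genotype rule and limma were also run on simulated ML libraries with known 2-fold changes. A count model was not used on the recovered UMIs.

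The members and lists were chosen with earlier results of these data known. Genes named were the members, other S100 genes with at least 50 UMIs, partners called in a comparison, up to 4 called EF-hand genes, the 2 genes most like each member, and Erbb3. Anxa2 falls outside this rule and was chosen after its values were seen. 1 result under the rule is not reported here. Python 3.11.15, numpy 2.4.6, pandas 2.3.3, scipy 1.17.1 and scanpy 1.11.5 were used. Alternatives chosen after seeing the data were ML cells without cluster 11, WT weights of the ML clusters, bins of UMIs per cell and cells without keratinocyte markers.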

Additional observations from a re-analysis of the deposited data

Results flagged for a closer look

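S100a10 and S100a16 drew attention because all mutant libraries lay on one side of the WT libraries in LP cells and on the other side in ML cells. For S100a10 the log2 ratio of mutant over WT was −0.075 in LP, 0.163 in LI and 0.171 in ML cells. For S100a16 it was −0.159 in LP and 0.071 in ML cells. The differences between the classes were not tested, since each genotype was 1 pool of mice. None reached the 1.5-fold of the rule. Within 5 bins of UMIs per cell, S100a16 was below 0 in 3 of the ML bins and S100a10 above 0 in 2 of the LP bins.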

How the results depend on the processing

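No paired analysis was possible because the libraries in the deposited table carry no replicate numbers. No result here reversed a called difference. Of 567 combinations of an alternative with a log2 ratio of the 7 abundant members, 549 kept the sign of the reported ratio. The 18 that did not were all of ratios between −0.09 and 0.13; they include S100a6 (0.01), S100a11 (−0.03) and S100a16 (0.03) in LI cells and S100a14 in LP cells (−0.01) without the cells of high doublet score, and S100a16 in LP over ML cells with the median of all genes at 0 (−0.03). Genotype counts of 0 became 1 higher (S100a14) in LI, ML and cluster 11 with the fold lowered to a 25% excess, and 1 lower (S100a4) in LI with no minimum of UMIs. With limma they became 1 lower in LP (S100a6), 1 higher in LI (S100a14), and 1 higher (S100a14) and 1 lower (S100a6) in ML. Of all genes limma called 1.29% higher and 0.722% lower in LP, 2.03% and 0.884% in LI, and 3.85% and 2.14% in ML. In cluster 11 limma called 0.108% of genes higher, 0.137% lower and no member, with 1 member higher and 1 lower at an unadjusted p under 0.05. Those unadjusted counts were 0 and 3 in LP, 2 and 1 in LI, and 2 and 3 in ML. For LP against ML cells the number lower went from 2 to 4 at a fold of 1.5 or with the median of all genes at 0, and the number higher (S100a4) from 1 to 0 with at least 200 UMIs. It was 0 to 1 when each library was left out, 0 without WT library B. For cluster 11 against other ML cells the number lower went from 1 to 2 with no minimum (S100a8) and 3 at a 25% excess (S100a10, S100a14 and S100a16), and was 1 to 2 when each library was left out (S100a10 added without WT library B). Other counts stayed the same. Depth limits S100a4 and S100a8 in luminal cells, where a library held at most 51 and 15 UMIs of a class.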

Other observations

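S100g, the vitamin D dependent calcium-binding protein calbindin-D9k, was uneven between libraries of the same pool. In LP cells it had 38 UMIs in WT library A and 12 in WT library B, and 15 in mutant library A and 89 in mutant library B. In LI cells the same libraries held 40, 4, 2 and 1 UMIs. S100a11-ps, a processed copy of S100a11 on chromosome 12, had 137 UMIs over all cells.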
